A study of Mus musculus with 6 samples.

Results

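The genes described here are 47 mouse genes of glycolysis and of the hypoxia response: the glucose transporter and the enzymes that carry glucose to lactate, the enzymes that set pyruvate entry into mitochondria, the subunits of hypoxia-inducible factor (HIF) and the proteins that degrade them, a set of genes that HIF is known to induce, and enzymes of glycogen turnover. They were taken by exact match of the gene symbol. Of the 47 genes, 41 were found among the 10520 genes of the count table, and 37 had enough counts to be tested among 8969 genes in all. Pfkp, Eno1, Pdk1, Epas1, Mxi1 and Pygl were not found under these symbols and are not analysed here. Aldoc, Pgk1, Ldhb and Car9 were found but did not pass the filter on low counts.

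The study asked how lowering lamin A/C, a protein of the nuclear lamina encoded by Lmna, affects metastatic tumour cells. E0771, a breast carcinoma line of C57BL/6 mice, was infected with lentivirus carrying an empty vector (shControl) or an shRNA against Lmna (shLmna), selected with puromycin at 3 µg/ml and expanded, in medium with 10% fetal serum and added pyruvate for both groups. RNA of 3 shControl and 3 shLmna samples was profiled with MARS-seq, a method that captures the 3′ end of each polyadenylated molecule and labels it with a random barcode, the UMI, before amplification; copies of a molecule then count once. The oxygen level of the cultures is not in the labels. In the sample titles the knockdown is called shRNA4, the same for all 3 libraries. Cells were selected as a pool of infected cells, and nothing in the labels says that the 3 libraries of a group came from separate cultures, so p-values measure the spread between these libraries, which may be technical.

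Cells break glucose down to pyruvate by glycolysis, and either pass the pyruvate to mitochondria through the pyruvate dehydrogenase complex or reduce it to lactate and export it. When oxygen is plentiful, prolyl hydroxylases mark the HIF alpha subunit for degradation by the VHL ligase. When oxygen is low the alpha subunit persists, pairs with ARNT, and raises transcription of glycolytic enzymes, angiogenic factors and its own hydroxylases. Tumour cell lines commonly run glycolysis at a high rate even in the presence of oxygen.

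The libraries held between 1846208 and 3242051 UMIs. Lmna, the targeted gene, had 2066, 2794 and 1764 UMIs in shControl libraries 1, 2 and 3, against 1035, 1023 and 713 in shLmna libraries 1, 2 and 3. Its log2 fold change (shLmna over shControl, as everywhere here) was -1.20, with a standard error (SE) of 0.13 and an adjusted p of 3.55e-05 by the quasi-likelihood test of edgeR, Benjamini-Hochberg adjusted over all tested genes; adjusted p-values are from this test unless another is named. Among the markers of breast epithelial cells, Krt8 had 516 to 814 UMIs per library, Epcam had 25 to 46 in shControl and 8 to 32 in shLmna (log2 fold change -0.90, adjusted p = 0.0909, without overlap after scaling), Krt18 and Krt7 had at most 20, and Krt19, Cdh1, Cldn3, Cldn4, Cldn7 and Esr1 were not in the table. Of 7 fibroblast markers 4 were in the table, and their summed level was 17.99 to 18.5 counts-per-million of the library total (plain CPM) in shControl and 28.3 to 31.4 in shLmna. Of 8 leukocyte markers 3 were in the table, at 15.8 to 18.4 and 21.8 to 26.2 plain CPM, while Ptprc was absent from it. Singly, Lyz2 (log2 fold change 1.28, adjusted p = 0.0110) and Pdgfrb (0.74, adjusted p = 0.0457) were called higher. The leukocyte marker Cd68 had a log2 fold change of -0.62 (adjusted p = 0.234). Pdgfra, the other tested fibroblast marker beside Pdgfrb, had 0.04 (adjusted p = 0.958), so the fibroblast sum does not describe its genes singly. Of 7 endothelial markers the table held Pecam1 alone, at 2 to 7 UMIs. The part of these markers in the results below was not tested, and in bulk RNA fewer cells of a type and less RNA per cell cannot be told apart. The shControl samples sat at positions 13 to 15 of the plate and the knockdown samples at 16 to 18, so that a plate position effect and the knockdown cannot be told apart.

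The 47 genes were chosen with earlier results of these data known, so the shares and medians below are not a test of them as a set. Of the 37 tested genes, 13 differed between the groups at an adjusted p below 0.05, which is 35.1%, where 13.7% of all tested genes did. Lower lamin A/C went with higher levels of 10 of them (27.0%, against 7.96% of all tested genes called higher) and lower levels of 3 (8.11%, against 5.78% called lower). The genes that rose were the phosphofructokinase Pfkl, the lactate dehydrogenase Ldha, the lactate exporter Slc16a3, the pyruvate dehydrogenase kinase Pdk3, Hif1a, the HIF prolyl hydroxylases Egln1 and Egln3, the HIF targets Ankrd37 and Ero1l, and Pgm2. Those that fell were the HIF targets Hilpda and Ndrg1, and Pgm1. Ero1l, which is in these counts, passed the filter on low counts through its shLmna libraries alone, so it could enter the test only by being higher there. With the study's further criterion of an absolute log2 fold change above 1, 6 genes were called (Pfkl, Pdk3, Hif1a, Ankrd37, Hilpda and, with the same limit, Ero1l), against 5.71% of all tested genes. Across the 37 genes the median log2 fold change was 0.25, with 24 positive and 13 negative values, beside a median of 0.0033 over all tested genes. In 21 of the 37 genes every library of one group lay above every library of the other (56.8%, against 32.5% of all tested genes), and this held for 12 of the 13 called genes, Hif1a being the exception. Leaving out 1 library lowered the number of called genes most without shControl library 2, to 7 (18.4%, where 5.89% of all tested genes were then called), and to 8 without shControl library 1 or shLmna library 2 (21.1%, where 8.65% and 8.30% were).

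**Figure D1:**
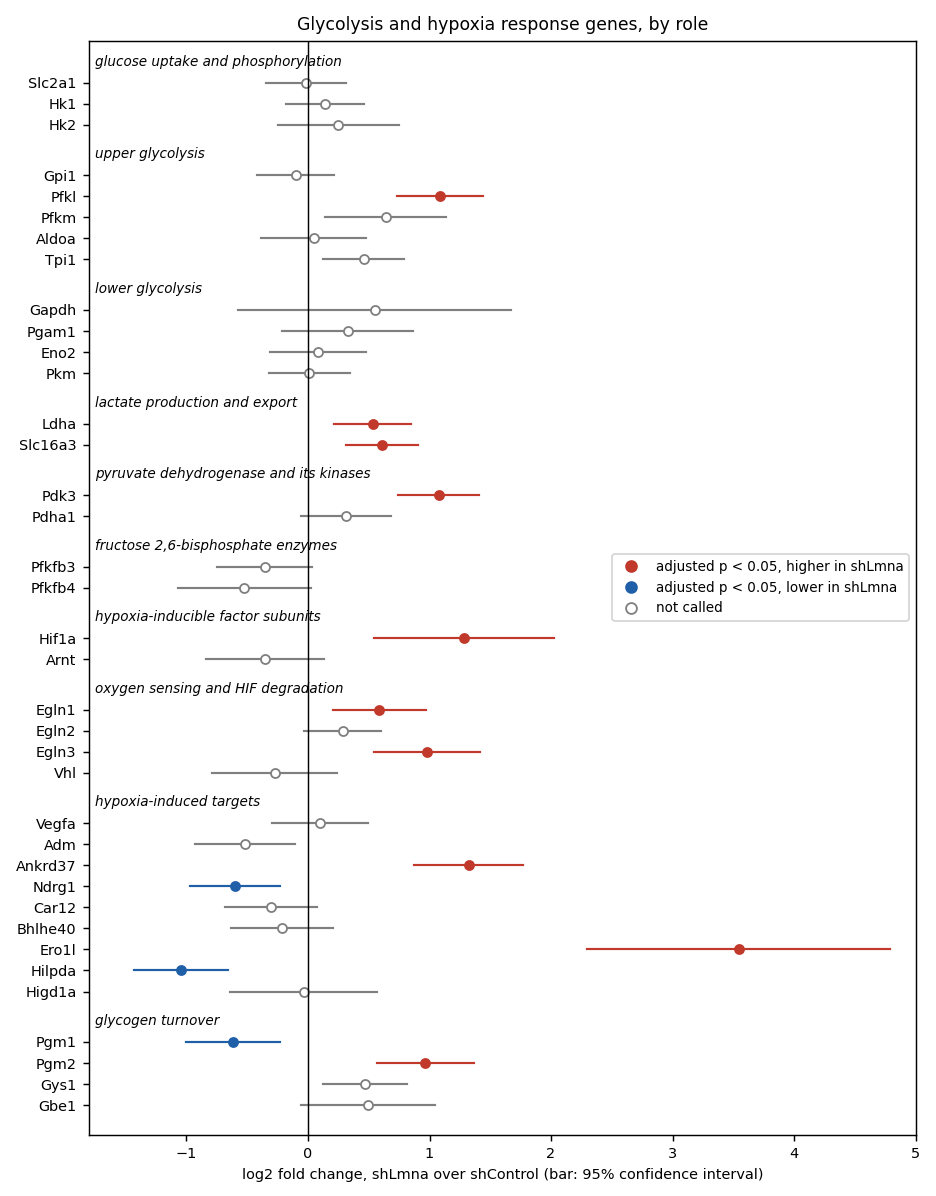
Log2 fold change (shLmna over shControl) of the 37 tested genes, ordered by role, with bars for the 95% confidence interval from the edgeR fit. Filled red and blue points are the 10 genes called higher and the 3 called lower, and open points are the 24 not called. Ero1l lies furthest to the right at 3.54 and Hilpda furthest to the left at -1.05.

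HIF binds DNA at a short core, most often with the letters ACGTG. The promoter windows of RefSeq (GRCm38.p6, 250 bases before to 50 after a transcription start) were searched for these letters on both strands, where the palindrome CACGTG counts on each strand. A window was found for 42 of the 47 genes, and 26 of these (61.9%) had a match in at least 1 window. The share over all genes of the count table with a window was 30.4% (2437 of 8018), and over all genes with a window, in the table or not, it was 21.8%. By single windows 30 of 60 held a match for the genes described here. Of all windows, also those of genes outside the table, 19.6% did, so this is the wider background. Among the called genes 9 of 10 with a window had a match (8 of 9 that rose, 1 of 1 that fell), and among the tested genes that were not called 12 of 23 had 1. The 8 include Ero1l, which passed the filter on low counts through its shLmna libraries alone. The share with a match among all called genes of the table was not computed, so no link between the letters and the calls is read from these counts. Pfkl had no match, Ndrg1 had no entry, and Pgm1 and Pgm2 were left out because annotations exchange these names. A match shows the letters only, and the core's presence was not tied to binding in these cells. For 8 called genes 1 stretch around a match is shown, 5′ to 3′ on the strand of the gene, with ACGTG or its reverse complement in capitals; Hilpda is included because it moved the other way. Further stretches of Ldha and Ankrd37, and that of Hif1a with 3 matches, are not printed.
Ldha, chr7:46845726-46845803, plus strand: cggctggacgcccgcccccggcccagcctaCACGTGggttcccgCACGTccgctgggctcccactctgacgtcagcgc
Slc16a3, chr11:120949010-120949066, plus strand: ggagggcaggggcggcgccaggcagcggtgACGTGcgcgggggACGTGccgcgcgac
Pdk3, chrX:93832169-93832233, minus strand: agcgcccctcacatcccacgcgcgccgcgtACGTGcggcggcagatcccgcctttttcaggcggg
Egln1, chr8:124949288-124949352, minus strand: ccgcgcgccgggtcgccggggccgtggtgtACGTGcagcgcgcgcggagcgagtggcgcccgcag
Egln3, chr12:54204069-54204124, minus strand: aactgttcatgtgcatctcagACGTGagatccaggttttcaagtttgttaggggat
Ankrd37, chr8:46000057-46000100, minus strand: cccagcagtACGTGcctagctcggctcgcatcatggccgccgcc
Ero1l, chr14:45318601-45318665, minus strand: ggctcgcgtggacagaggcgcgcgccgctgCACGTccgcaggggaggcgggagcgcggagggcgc
Hilpda, chr6:29272553-29272617, plus strand: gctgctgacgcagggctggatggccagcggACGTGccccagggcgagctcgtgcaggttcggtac

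The first steps of glucose use did not pass the test. Slc2a1 (GLUT1), the main glucose transporter of many tumour cells, stood at 101.6, 104.7 and 108.2 counts-per-million scaled by TMM factors (CPM) in shControl and 90.7, 122 and 97.8 in shLmna, with a log2 fold change of -0.02 (95% interval -0.34 to 0.31, adjusted p = 0.962). Hk1 and Hk2, the hexokinases that phosphorylate glucose, had log2 fold changes of 0.14 (interval -0.18 to 0.46) and 0.25 (interval -0.24 to 0.75), and the 2 groups of libraries overlapped for both. Hk2 made up 8.11% ± 1.51 (SD, n = 3) of the UMIs of Hk1 and Hk2 in shControl and 8.97% ± 1.87 in shLmna.

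In upper glycolysis the liver-type phosphofructokinase Pfkl, which commits the sugar to glycolysis, had about 2 times the level in the knockdown. Pfkl (chromosome 10, 77986947 to 78010083, minus strand, GRCm38) was at 204, 178 and 133 CPM in shControl and at 413, 340 and 346 in shLmna, a log2 fold change of 1.09 (SE 0.17, adjusted p = 0.000564). All shLmna libraries lay above all shControl libraries, and the gene passed the test under every alternative run. The counted end of Pfkl overlaps 1810043G02Rik on the opposite strand, and whether counting used strand was not stated in the sources used here. The muscle-type Pfkm was far less abundant, at 11.4 to 12.2 CPM in shControl and 15.4 to 20.6 in shLmna, and its log2 fold change of 0.64 did not pass the test (adjusted p = 0.0841), although the groups did not overlap. Pfkl thus held 93.3% ± 1.61 (SD, n = 3) of the Pfkl and Pfkm UMIs in shControl and 95.2% ± 0.477 in shLmna.

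The neighbouring enzymes did not pass the test. Tpi1 (triosephosphate isomerase) was at 1319 to 1511 CPM in shControl and 1668 to 2425 in shLmna, without overlap, and its log2 fold change of 0.46 (SE 0.16) missed the threshold with an adjusted p of 0.0656; it passed with DESeq2 (adjusted p = 0.0473) and after GC correction (adjusted p = 0.0425). Gpi1 (glucose-6-phosphate isomerase) at -0.10 and Aldoa (the main aldolase of these cells) at 0.05 had overlapping groups. The brain-type aldolase Aldoc had 4, 7 and 2 UMIs in shControl and 1 in each shLmna library, too few to test. The ratio of its summed UMIs, shLmna over shControl, was 0.242 relative to TMM-scaled library totals. Its exact 95% interval of 0.0443 to 0.881 covers counting error only.

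None of the 4 tested genes of lower glycolysis passed the test. Pkm (pyruvate kinase), among the most abundant, was at 1983, 1671 and 1758 CPM in shControl and 2168, 1822 and 1467 in shLmna, with a log2 fold change of 0.01 (interval -0.32 to 0.35). Pgam1 (phosphoglycerate mutase) and Eno2 (an enolase) had log2 fold changes of 0.33 (interval -0.21 to 0.86) and 0.08 (interval -0.32 to 0.48). Gapdh could not be measured well: 1 shControl library had 107 UMIs and the others 1675 and 1090, beside 1391, 1779 and 930 in shLmna. Its log2 fold change of 0.55 had an interval of -0.58 to 1.67 (adjusted p = 0.538), and without shControl library 1 it was 0.0021 (adjusted p = 0.995).

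Gapdh was also the gene with the most copies. Of the 50-base windows in the last 1000 bases of its transcript, 95.6% occurred in transcripts of 210 other genes. The same share was 72.5% for Eno1, 56.0% for Pgk1, 33.1% for Ldhb, 25.0% for Pkm, 21.1% for Aldoa, 13.2% for Ldha and 9.57% for Tpi1, while it was 0.421% for Pfkl and 0 for the other called genes whose locus was settled. Pgk1, another glycolytic kinase, had 10, 7 and 38 UMIs in shControl and 9, 35 and 6 in shLmna, and Ldhb had 0, 0 and 11 against 0, 9 and 1, so in both genes libraries of the same group differed severalfold. How reads that match several places were treated was not given in the sources used here, and its part in these spreads was not tested.

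**Figure D2:**
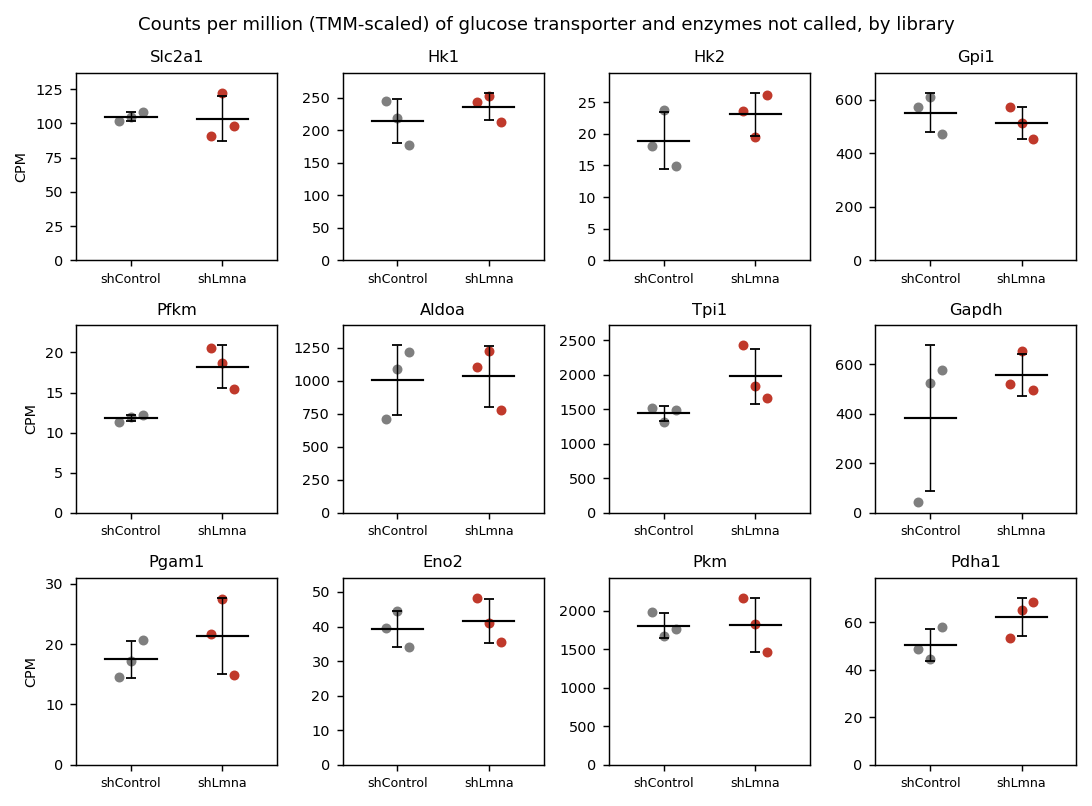
TMM-scaled CPM of the glucose transporter Slc2a1 and 11 enzymes that did not pass the test, on linear axes from 0, with each point a library, black lines the group means and error bars the SD (n = 3). The groups overlap except for Pfkm and Tpi1, and 1 shControl library of Gapdh lies near 42.0 CPM while the other 5 libraries lie between 495 and 653.

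At the end of the pathway both tested genes of lactate production and export rose. Ldha, the lactate dehydrogenase subunit that reduces pyruvate, lies on chromosome 7 (46841475 to 46855627, plus strand). It had 1746, 1868 and 2391 CPM in shControl and 2920, 3067 and 2697 in shLmna, all above the highest shControl library, and rose by a log2 fold change of 0.53 (SE 0.15, adjusted p = 0.0273). This call was lost on leaving out any library other than shControl 3. Over all fits with a library left out the log2 fold change of Ldha lay between 0.43 and 0.67. Slc16a3 (MCT4, chromosome 11, 120948480 to 120960868, plus strand), which carries lactate out of the cell, had 901, 804 and 942 CPM in shControl and 1477, 1373 and 1192 in shLmna, again without overlap. Its log2 fold change was 0.61 (SE 0.14, adjusted p = 0.00957), and the call was lost without shControl library 2 or shLmna library 1. Over the 6 fits with a library left out the log2 fold change stayed between 0.53 and 0.69 and the adjusted p reached at most 0.0796. Summed over Ldha, Ldhb and Slc16a3, the libraries held 2530 to 3317 plain CPM in shControl and 3962 to 4626 in shLmna, a ratio of means of 1.52. For the 17 genes in the table from glucose uptake to lactate export the ratio was 1.31 (8476 ± 790 against 11120 ± 1245 plain CPM, SD, n = 3), and it was 1.30 without Gapdh. With TMM scaling these 3 ratios were 1.47, 1.27 and 1.26. Of the 14 tested genes among the 17, 3 were called higher (21.4%, against 7.96% of all tested genes), and 12 had positive and 2 negative log2 fold changes. Mean CPM went from 2001 to 2895 for Ldha and from 1440 to 1977 for Tpi1, and from 1804 to 1819 for Pkm.

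Of the regulators of pyruvate entry into mitochondria, Pdk3 rose. The kinase Pdk3 inhibits pyruvate dehydrogenase by phosphorylation; its gene is on chromosome X (93764607 to 93832201, minus strand). Its level was 45.9, 57.9 and 51.5 CPM in shControl and 111, 102 and 116 in shLmna, a log2 fold change of 1.08 (SE 0.16, adjusted p = 0.000408), and it passed under every alternative run. Pdha1, the catalytic subunit that this kinase phosphorylates, had a log2 fold change of 0.31 (interval -0.06 to 0.68, adjusted p = 0.262). Pfkfb3 and Pfkfb4, which make and remove the phosphofructokinase activator fructose 2,6-bisphosphate, were both lower in every shLmna library than in any shControl library, at 26.8 to 31.9 against 34.0 to 39.2 CPM and at 10.1 to 10.7 against 11.1 to 16.5 CPM. Neither passed the test, with log2 fold changes of -0.36 (adjusted p = 0.219) and -0.53 (adjusted p = 0.195).

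Hif1a, the oxygen-labile subunit of HIF, was higher in shLmna but with wide spread in both groups. It had 22.4, 41.9 and 82.2 CPM in shControl and 70.8, 154 and 124 in shLmna, so that the lowest shLmna library lay under the highest shControl library. The log2 fold change was 1.28 (SE 0.35, adjusted p = 0.0236). Hif1a (chromosome 12, 73901375 to 73947530, plus strand) has a GC content of 32.1% in its last 1000 bases, where the median of tested genes was 47.1%. A correction for GC content lowered the log2 fold change to 0.68 (adjusted p = 0.0717), and the call was also lost with DESeq2 (adjusted p = 0.192). It was lost too in 4 of the 6 fits that left out a library, namely without shControl library 1 or 2 or shLmna library 2 or 3. Over these 6 fits the log2 fold change lay between 0.92 and 1.82, with an adjusted p of up to 0.147. Its partner Arnt was at 29.2 to 36.9 CPM in shControl and 17.99 to 32.2 in shLmna, a log2 fold change of -0.35 that did not pass the test (adjusted p = 0.336).

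Among the proteins that sense oxygen and degrade HIF, the prolyl hydroxylases Egln3 (PHD3) and Egln1 (PHD2) rose. Egln3 (chromosome 12, 54178981 to 54203860, minus strand) was at 26.3, 20.3 and 16.98 CPM in shControl and 43.1, 45.2 and 37.8 in shLmna, a log2 fold change of 0.98 (SE 0.21, adjusted p = 0.00593) that passed under every alternative run. Egln1 (chromosome 8, 124908587 to 124949324, minus strand) was at 44.3, 49.7 and 45.6 CPM in shControl and 69.7, 83.7 and 55.8 in shLmna. The groups of Egln1 did not overlap, and the log2 fold change was 0.59 (SE 0.18, adjusted p = 0.0397). The adjusted p lay above the threshold with DESeq2 (0.0640), without the filter on low counts (0.0548), and on leaving out any library other than shLmna 3. Over all fits with a library left out the log2 fold change of Egln1 was 0.44 to 0.72, with an adjusted p up to 0.184. Egln2 (PHD1) was the most counted of these hydroxylases, at 88.6 to 107 CPM and 111 to 126 CPM, with a log2 fold change of 0.29 (adjusted p = 0.225), and Vhl had -0.28 (adjusted p = 0.495). Egln3 made up 13.01% ± 2.85 (SD, n = 3) of the UMIs of Egln1 to Egln3 in shControl and 18.4% ± 0.378 in shLmna, without overlap between the groups.

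**Figure D3:**
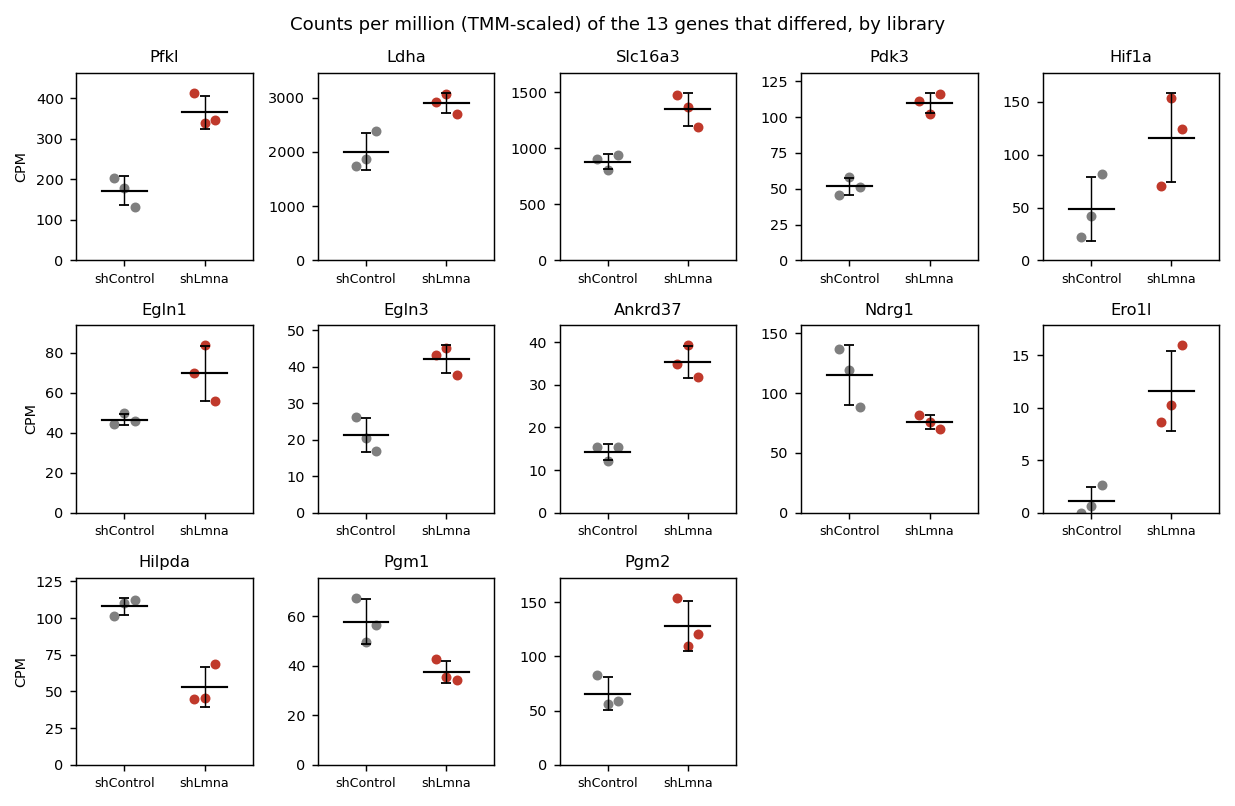
TMM-scaled CPM of the 13 called genes, on linear axes from 0, with each point a library, black lines the group means and error bars the SD (n = 3), which for Ero1l in shControl is cut off at 0. The 3 shLmna libraries lie above the shControl libraries for 9 genes and under them for Ndrg1, Hilpda and Pgm1, while in Hif1a the groups overlap.

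The genes known to be induced by hypoxia went in both directions. Of 9 tested, 2 rose (22.2%, against 7.96% of all tested genes), 2 fell (22.2%, against 5.78%) and 5 did not pass, and their median log2 fold change was -0.21. Ero1l (ER oxidoreductin, which passes electrons from protein thiols to oxygen) changed most. It had 0, 2 and 5 UMIs in shControl and 23, 28 and 30 in shLmna. The ratio of its summed UMIs was 12.1 relative to TMM-scaled library totals (exact 95% interval 5.63 to 31.2, counting error only). The fitted log2 fold change was 3.54 (SE 0.59, adjusted p = 0.00114). Since Ero1l (chromosome 14, 45283087 to 45318771, minus strand) was tested only through its shLmna libraries, this p is not independent of the filter. Ankrd37, a small ankyrin protein, was at 15.3, 12.2 and 15.4 CPM in shControl and 34.9, 39.3 and 31.9 in shLmna, a log2 fold change of 1.32 (SE 0.21, adjusted p = 0.000843). The counted end of Ankrd37 (chromosome 8, 45996902 to 46005707, minus strand) overlaps exons of Lrp2bp and Ufsp2 on the opposite strand.

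Hilpda, which coats lipid droplets and inhibits their lipolysis, fell by 51.5%. It was at 102, 110 and 112 CPM in shControl and 44.6, 45.5 and 68.6 in shLmna, a log2 fold change of -1.05 (SE 0.18, adjusted p = 0.00154), and it passed under every alternative run (chromosome 6, 29272488 to 29275446, plus strand). Ndrg1, a stress-induced growth regulator, was at 137, 119 and 88.1 CPM in shControl and 81.7, 76.0 and 69.7 in shLmna, without overlap. Its log2 fold change was -0.60 (SE 0.17, adjusted p = 0.0313), and the call was lost on leaving out any library other than shControl 3. Over all fits with a library left out the log2 fold change of Ndrg1 was -0.76 to -0.47, with an adjusted p up to 0.139. The end of Ndrg1 (chromosome 15, 66929318 to 66969640, minus strand) overlaps Gm17035 on the opposite strand. Adm (the vasodilator peptide adrenomedullin) was lower in every shLmna library, at 26.1 to 34.5 against 38.2 to 48.8 CPM, and its log2 fold change of -0.52 missed the threshold (adjusted p = 0.0920). The angiogenic factor Vegfa had a log2 fold change of 0.10 (interval -0.30 to 0.49) that became -0.25 after GC correction. Car12 (a carbonic anhydrase) at -0.30, the transcriptional repressor Bhlhe40 at -0.21 and the mitochondrial protein Higd1a at -0.04 did not pass either. Car9, the carbonic anhydrase often used as a marker of hypoxia, had 7, 8 and 5 UMIs in shControl and 7, 5 and 2 in shLmna, too few to test. The ratio of its summed UMIs was 0.734 relative to TMM-scaled library totals (interval 0.343 to 1.53). Summed over the 10 genes in the table, the hypoxia-induced genes held 382 to 410 plain CPM in shControl and 313 to 327 in shLmna. Hilpda (mean CPM 108 in shControl and 52.9 in shLmna) and Ndrg1 (115 and 75.8) were the most abundant of them and weigh most in this sum. Ankrd37 (14.3 and 35.4) and Ero1l (1.09 and 11.6) went the other way, so the sum does not describe the genes singly.

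Enzymes of glycogen turnover included the opposite changes of Pgm1 and Pgm2. In mammals 1 phosphoglucomutase links glycogen to glycolysis and its relative acts mainly on pentose phosphates, but annotations have exchanged the names of these mouse loci, and which locus each name in the table stands for was not settled. Pgm2 was at 82.8, 55.7 and 58.4 CPM in shControl and 154, 109 and 120 in shLmna, a log2 fold change of 0.96 (SE 0.19, adjusted p = 0.00364) that passed under every alternative run. Pgm1 was at 67.5, 49.7 and 56.2 CPM in shControl and 42.7, 35.6 and 34.0 in shLmna, a log2 fold change of -0.62 (SE 0.18, adjusted p = 0.0349). This call was lost with DESeq2 (adjusted p = 0.0640) and without shControl library 1 or 2 or shLmna library 2 or 3. Over the 6 fits with a library left out the log2 fold change of Pgm1 was -0.74 to -0.50, with an adjusted p up to 0.140. Pgm2 held 55.1%, 52.8% and 50.9% of the UMIs of both genes in the shControl libraries and 78.3%, 75.4% and 77.9% in the shLmna libraries, so the groups did not overlap. Gys1 (glycogen synthase) and Gbe1 (the branching enzyme) were higher in every shLmna library, at 64.3 to 84.4 against 53.5 to 56.9 CPM and at 12.4 to 16.9 against 8.63 to 11.3 CPM. Neither passed the test, with log2 fold changes of 0.47 (adjusted p = 0.0662) and 0.50 (adjusted p = 0.226), and Gys1 passed after GC correction (adjusted p = 0.0382).

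**Figure D4:**
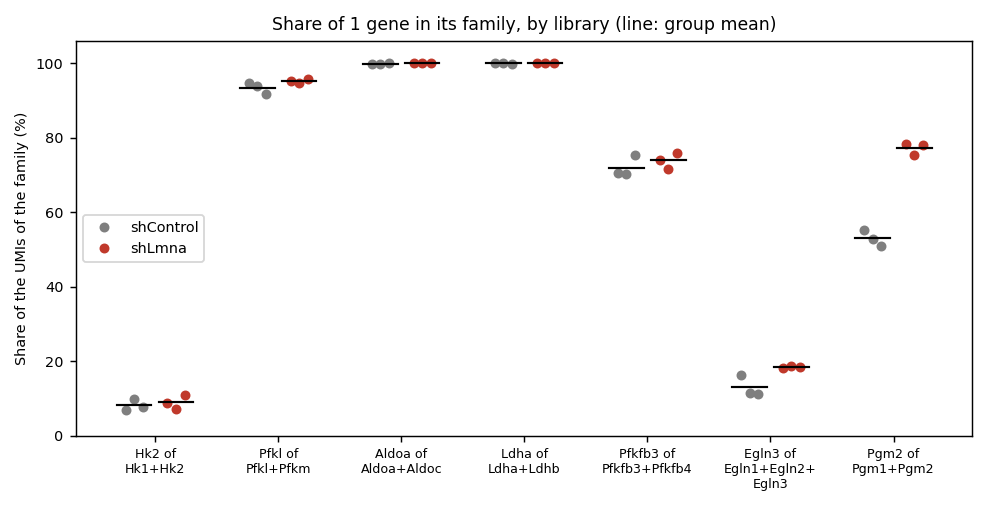
Share of the UMIs of a gene family taken by 1 of its genes, in percent, with each point a library and black lines the group means (grey shControl, red shLmna). Counts come from windows of the same length at the 3′ ends. Pgm2 moves from 52.9% ± 2.09 to 77.2% ± 1.55 (SD, n = 3), Egln3 moves by less, and Hk2, Ldha and Pfkfb3 overlap between the groups. The groups of Pfkl and Aldoa barely separate. For Pfkl, shControl library 1 lies at 94.71% and shLmna library 2 at 94.77%. For Aldoa, shControl library 3 lies at 99.91% and shLmna library 3 at 99.93%.

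The GC content of the 3′ end was measured because it can change how well a molecule is captured and amplified. The last 1000 bases of the genes called higher had a median GC content of 46.1% (32.1% to 51.9%) over the 9 with a value, beside 47.1% over all tested genes. After the correction 14 genes were called, of which 12 were among the 13 called without it. Hif1a was lost, and Tpi1 and Gys1 were gained.

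**Figure D5:**
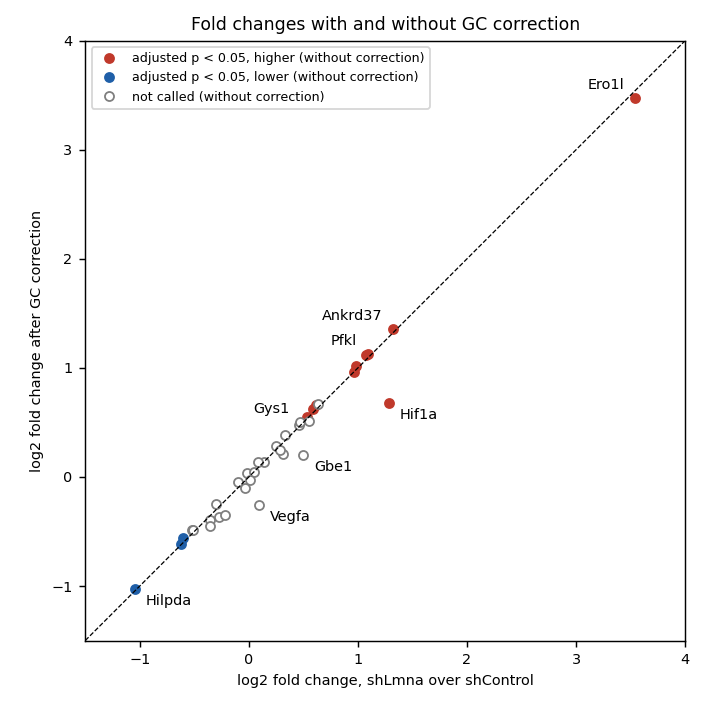
Log2 fold change (shLmna over shControl) without (horizontal axis) and with (vertical axis) correction for GC content of the 3′ end, for the 37 tested genes; the dashed line marks equal values. Pgm1 and Pgm2 had no GC value assigned. Hif1a (1.28 against 0.68), Vegfa (0.10 against -0.25) and Gbe1 (0.50 against 0.20) lie furthest under the line.

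Other genes of the same pathways were taken from 7 lists holding 148 genes, of which 88 were tested. Of these 88, 13 rose and 5 fell, which is 20.5%, beside the 13.7% of all tested genes. Those that rose were 14.8%, against 7.96% of all tested genes, and those that fell were 5.68%, against 5.78%. The lists were chosen with earlier results of these data known, so these shares are not a test of them. Most of the calls were in the list of other hypoxia-induced genes, where 8 of 31 rose (25.8%, against 7.96%) and 4 fell (12.9%, against 5.78%). Of the mitophagy receptors Bnip3 and Bnip3l, both induced by HIF, Bnip3 rose. It had 17, 24 and 18 UMIs in shControl and 83, 102 and 43 in shLmna (log2 fold change 1.98, adjusted p = 0.000187). Bnip3l was low, with 14 UMIs over the shControl libraries and 56 over the shLmna libraries (ratio 4.20 relative to TMM-scaled library totals, exact interval 2.31 to 8.16, counting error only). Like Ero1l it passed the filter through its shLmna libraries alone, and its call, one of the 8, was lost without shControl library 2, shLmna library 2 or shLmna library 3 (adjusted p up to 0.135 with a library left out). The transferrin receptor Tfrc, which brings iron into the cell, went from 8 to 17 UMIs per library in shControl to 122 to 193 in shLmna (log2 fold change 3.55, adjusted p = 3.76e-06). Selenbp1, a selenium-binding protein, had 7 UMIs over the shControl libraries and 74 over the shLmna libraries (ratio 11.1 relative to TMM-scaled library totals, exact interval 5.12 to 28.6, counting error only). Selenbp1 too is among the 8 and passed the filter through the shLmna libraries alone. The matrix genes Tgfbi and Loxl2 (a lysyl oxidase) rose, with log2 fold changes of 1.74 (adjusted p = 0.000218) and 1.54 (adjusted p = 0.000889).

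Of the genes in that list that fell, Hmox1, which degrades heme, had a log2 fold change of -1.23 (adjusted p = 3.27e-05), and the phosphatase Dusp1 had -1.25 (adjusted p = 0.000575). In the pentose phosphate pathway 1 of 9 tested genes was called (11.1%, not above the 13.7% of all tested genes), H6pd (the hexose-6-phosphate dehydrogenase of the endoplasmic reticulum), with a log2 fold change of 1.06 (adjusted p = 0.00236). Among 15 other glycolytic and gluconeogenic enzymes 1, Hkdc1, fell (6.67%, against 5.78% of all tested genes) and none rose, with a median log2 fold change of 0.08. None of 5 other pyruvate dehydrogenase complex genes was called. Of 6 other carriers of glucose, lactate and pyruvate 1 rose, as did 2 of 11 other glycogen genes and 1 of 11 other regulators and partners of HIF. These shares, 16.7%, 18.2% and 9.09%, stand beside 7.96% of all tested genes called higher and rest on so few genes that nothing is read from them.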

How the data were processed

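RNA of 3 shControl and 3 shLmna E0771 samples was measured by MARS-seq. The authors trimmed reads with Cutadapt, mapped them to mm10 with STAR 2.4.2a and counted UMIs with a modified HTSeq in a window from 1000 bases before to 100 bases past the RefSeq 3′ end of a gene. They deposited the raw counts of 10520 genes, and no gene has a highest count under 6. The other deposited tables, of log2 values corrected with ComBat and of the authors' own comparison (fold changes and p-values), were not used.

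These counts were tested with edgeR 4.0.16 (R 4.3.3): filterByExpr (minimum count 10), TMM scaling, and the quasi-likelihood test without a replicate block, with Benjamini-Hochberg adjustment over 8969 genes. A gene was called at an adjusted p below 0.05. CPM are TMM-scaled, and sums over genes are plain CPM, scaled by the library total alone. Alternatives were RLE scaling, DESeq2 1.42.0, no filter, a mean count of at least 50, a replicate block, a GC correction (loess, span 0.3, degree 2, on the last 1000 bases in GENCODE M21 transcripts), and each library left out. A transcript was matched to 10466 genes, 323 through an older symbol. With 3 libraries against 3 the smallest p of an exact permutation test is 0.1, and no such test was run. Replicates of a group were not copies of a library (chi-square per degree of freedom 5.11 to 8.28 between pairs). Ratios of summed UMIs are relative to TMM-scaled library totals and carry exact 95% intervals. All columns of single libraries were used.

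The 47 genes and the pathway lists were chosen with earlier results of these data known. Named are all genes of the 47 found in the table and, of the lists, the called genes with an absolute log2 fold change above 1, at most 10 by p. Hkdc1 of the lists is named besides, as a called hexokinase gene. A result that this rule would name is not reported here.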

Additional observations from a re-analysis of the deposited data

How the results depend on the processing

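The number of genes called among the 47 was 11 to 14 under RLE scaling, DESeq2, either filter, the GC correction and the replicate block (13 with the replicate block alone), against 13 as reported. With a library left out it fell to between 7 and 12, the lowest without shControl library 2, and was 8 without shControl library 1 or shLmna library 2. The genes called higher numbered 6 to 9 with a library left out (10 as reported) and those called lower 1 to 3 (3 as reported), while the share of all tested genes called ranged from 5.89% to 17.2% in the same fits and the genes called lower went down to 1 without shControl library 1 or 2 or shLmna library 2 or 3. Over all tested genes 1232 were called, 779 of the 5846 with a mean count of at least 50, and between 540 and 1580 with a library left out. With the GC correction and the replicate block together 47.4% of all calls were higher in shLmna, against 57.95% as reported. Of the 13 called genes 7 (Pfkl, Pdk3, Egln3, Ankrd37, Ero1l, Hilpda and Pgm2) kept direction and call under every alternative that could be run for them (Ero1l having passed the filter through its shLmna libraries alone), and Ldha, Slc16a3, Hif1a, Egln1, Ndrg1 and Pgm1 lost the call under some, none of them changing sign. The cause was not tested.

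Signs changed only in genes that were not called. Slc2a1 (-0.02 as reported) became 0.036 with the GC correction, 0.028 with GC correction and replicate block, and between -0.15 and 0.058 with a library left out, being positive without shLmna library 1 or 3. Pkm became -0.0017 with the replicate block, -0.024 with the GC correction, -0.031 with both, and between -0.15 and 0.147 with a library left out, being negative without shControl library 2, shControl library 3 or shLmna library 1. Vegfa became -0.25 with the GC correction, with or without the replicate block. With a library left out, Aldoa lay between -0.17 and 0.216, negative without shControl library 1, shLmna library 1 or shLmna library 2. Eno2 lay between -0.053 and 0.179, negative without shControl library 3 or shLmna library 1. Higd1a lay between -0.136 and 0.084, positive without shControl library 3 or shLmna library 2.

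Both groups carry replicate numbers 1 to 3. Across genes, how far a library lay from the mean of its group correlated between the libraries of equal number at 0.35, -0.11 and 0.0052, so the numbers were not taken to pair the samples; the replicate block alone changed no call among the 37 genes. Added to the GC correction it undid the changes of call that the correction made alone: Hif1a was called (adjusted p = 0.0239), and Tpi1 (0.0599) and Gys1 (0.0570) were not. Low counts limit what can be read from Aldoc, Pgk1, Ldhb, Car9, Ero1l and Higd1a, which had under 40 UMIs in every library. Where a library was left out, 1 group kept 2 libraries.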
